A study of Mus musculus with 4 samples.

Results

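The inner root sheath keratins examined here are 7 genes, chosen by name from the 17721 genes with deposited values. They are the type I keratins Krt25, Krt26, Krt27 and Krt28 and the type II keratins Krt71, Krt72 and Krt73. RNA was sequenced from the back skin epidermis, separated with the enzyme dispase, of C57BL/6 mice at postnatal day 63. There were 2 wild type libraries and 2 from LDB2-/- mice, which lack the LIM domain-binding adaptor Ldb2. How the LDB2-/- allele was made, the sex of the mice, the hair cycle stage of the skin and whether a library holds 1 animal or a pool are not given in the sources used here. P-values therefore measure the spread between these libraries, which may be technical.

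A growing hair follicle holds concentric layers of keratinocytes, and the inner root sheath is the rigid tube that surrounds and moulds the hair shaft. It consists of the Henle layer, the Huxley layer and a cuticle, and it is built while the follicle grows and lost when the follicle rests. Keratin filaments are obligate heteropolymers, in which each type I chain pairs with a type II chain. Krt25, Krt27, Krt28 and Krt71 are known from all layers of the sheath, whereas Krt26, Krt72 and Krt73 are known from its cuticle. Mutations of Krt25 and Krt71 give mice a wavy coat.

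All 7 keratins were far higher in LDB2-/- than in wild type epidermis, by 279-fold for Krt73 to 758-fold for Krt72. Without wild type library 1 these folds were 156.6 (Krt73) to 409.8 (Krt72), and without wild type library 2 they were 646.3 (Krt25) to 3265 (Krt72). Together they went from 0.0115% and 0.0454% of all counts in wild type to 6.96% and 7.82% in LDB2-/-. Krt71, Krt25 and Krt27 ranked 1, 2 and 3 of all genes by FPKM in both LDB2-/- libraries. Krt26, the lowest member, ranked 198 and 220 there. FPKM is the number of fragments scaled to transcript length and to library size, so it can be compared between genes. Within each type the leading gene was the same in every library, Krt25 for type I and Krt71 for type II. In wild type the levels differed between the libraries by 3.45-fold or more for each of the 7 genes.

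Depth was 54095522 to 68436842 counts per library, with counts in 15468 to 16599 genes. The targeted gene Ldb2 (chromosome 5, 44435955 to 44799759) had 0 counts in wild type library 1, 8 in wild type library 2 and 0 in both LDB2-/- libraries, so it could not check the genotype labels. A count of 0 there allows up to 0.0555 CPM (counts scaled to library size) in LDB2-/- library 1 and 0.0438 in library 2, a limit that covers counting error only. The labelled tissue was checked against basal and suprabasal keratinocyte genes. Krt14, a basal keratin, was between 2274 and 5676 FPKM in the 4 libraries.

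The genes lie in 2 clusters, and coordinates are on GRCm38.p6, the mm10 build, from RefSeq. The type I members are neighbours on the minus strand of chromosome 11: Krt25 (gene ID 70810, 99315516 to 99322951), Krt26 (320864, 99328484 to 99337965), Krt27 (16675, 99345565 to 99351118) and Krt28 (70843, 99365007 to 99374903), a span of 59.4 kb. The type II members lie on the minus strand of chromosome 15: Krt71 (56735, 101733949 to 101743097), Krt72 (105866, 101776172 to 101786520) and Krt73 (223915, 101793304 to 101802360), a span of 68.4 kb. Each type I member has 8 exons and each type II member 9 in GENCODE M21, and no other annotated gene overlaps any of the 7. Krt74, the pseudogene of a further type II inner root sheath keratin, lies between Krt71 and Krt72.

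The 250 bases before the RefSeq start are shown for 5 members, since the genes moved together and Krt72 moved most. Krt25 and Krt27 stand for type I, and Krt71, Krt73 and Krt72 for type II. They are written 5′ to 3′ on the coding strand, with 3 motifs in capitals wherever either strand holds them. TATAAA is the core of the TATA box, AGATAA a core known to be bound by the zinc finger family of Gata3, and TAATTA one bound by homeodomain proteins. In these 250 bases Krt26 and Krt28, which are not shown, lack AGATAA, as does Krt72. TAATTA is absent from Krt26, Krt27 and Krt72.
Krt25: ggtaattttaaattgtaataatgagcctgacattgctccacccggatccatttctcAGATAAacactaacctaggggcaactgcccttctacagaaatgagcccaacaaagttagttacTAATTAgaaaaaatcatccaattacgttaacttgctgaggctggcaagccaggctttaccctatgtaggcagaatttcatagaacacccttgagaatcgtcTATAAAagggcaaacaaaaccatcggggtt
Krt27: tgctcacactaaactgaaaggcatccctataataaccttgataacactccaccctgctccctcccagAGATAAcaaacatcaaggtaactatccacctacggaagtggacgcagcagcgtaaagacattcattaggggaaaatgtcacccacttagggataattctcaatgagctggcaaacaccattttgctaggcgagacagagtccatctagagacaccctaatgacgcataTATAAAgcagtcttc
Krt71: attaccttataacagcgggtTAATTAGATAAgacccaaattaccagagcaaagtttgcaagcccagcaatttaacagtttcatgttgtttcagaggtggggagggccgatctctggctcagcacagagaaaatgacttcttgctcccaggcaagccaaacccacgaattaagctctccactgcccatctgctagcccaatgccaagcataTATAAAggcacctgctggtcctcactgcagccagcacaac
Krt73: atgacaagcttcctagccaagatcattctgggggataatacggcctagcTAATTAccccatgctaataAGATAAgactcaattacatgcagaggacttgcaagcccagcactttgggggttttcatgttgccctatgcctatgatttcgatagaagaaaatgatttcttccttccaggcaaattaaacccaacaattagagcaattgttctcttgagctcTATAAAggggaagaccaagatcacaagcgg
Krt72: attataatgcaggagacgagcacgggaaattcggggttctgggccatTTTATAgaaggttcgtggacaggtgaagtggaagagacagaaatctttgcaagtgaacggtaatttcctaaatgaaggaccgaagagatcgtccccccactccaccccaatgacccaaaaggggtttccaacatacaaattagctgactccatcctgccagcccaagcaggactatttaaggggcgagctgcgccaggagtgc

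These windows are chr11:99322952-99323201 for Krt25, chr11:99351119-99351368 for Krt27, chr15:101743098-101743347 for Krt71, chr15:101802361-101802610 for Krt73 and chr15:101786521-101786770 for Krt72, each on the minus strand. TATAAA was found on either strand in 7 of 7 member promoters and in 12.4% of all 32851 promoters, and in 10 of 30 promoters of other keratin genes. On the coding strand a copy began 15 to 40 bases before the start in Krt25, Krt26, Krt27, Krt28, Krt71 and Krt73, whereas in Krt72 it was on the opposite strand, 203 bases before the start. Only exact letters were searched for, so the similar tatttaa near the start on the coding strand of Krt72 was not counted. AGATAA was found in Krt25, Krt27, Krt71 and Krt73, 182 to 225 bases before the start, in 9.99% of all promoters and in 5 of the 30 other keratin promoters. TAATTA, whose letters read the same on both strands, was found in Krt25, Krt28, Krt71 and Krt73 in 4.84% of all promoters and in 1 of the 30 other keratin promoters, and it overlaps AGATAA by 1 base in Krt71. CTTTGA, a LEF1/TCF core, was found in Krt28, in 13.8% of all promoters and in 8 of the 30 other keratin promoters. The longest run shared by a pair of member promoters was TTGCAAGCCCAGCA in Krt71 and Krt73, 14 bases that were present in 2 of the 32851 promoters. These matches describe letters in a window and are not evidence of binding.

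Of the type I genes, Krt25 was the most abundant in each library. Wild type libraries 1 and 2 held it at 20.7 and 71.5 FPKM, and LDB2-/- libraries 1 and 2 at 10533 and 11866 FPKM. Both LDB2-/- libraries were thus far above both of wild type, and wild type library 2 was the higher of its pair. The log2 fold change of Krt25 was 8.26 (SE 0.74, adjusted p = 0.000538, edgeR quasi-likelihood test on the counts with TMM scaling, adjusted over 12400 tested genes).

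Krt27, a type I chain found in the same layers, was at 12.6 and 44.1 FPKM in wild type against 7243 and 8255 in LDB2-/-. Its log2 fold change was 8.43 (SE 0.75, adjusted p = 0.000519 in edgeR). Krt28, the third such chain, was at 3.61 and 16.0 FPKM in wild type against 2187 and 2517 in LDB2-/-, and its log2 fold change was 8.24 with an SE of 0.85 (edgeR adjusted p = 0.000812). The genotypes did not overlap for either gene, and wild type library 1 was the lowest of the 4 libraries for both. Krt26, the type I keratin of the sheath cuticle, was the least abundant member in each library. It was at 0.498 and 2.07 FPKM in wild type, from 89 and 314 counts, and at 395.1 and 368.6 in LDB2-/-, and its log2 fold change was 8.55 with an SE of 0.77 (edgeR adjusted p = 0.000539).

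Among the type II genes, Krt71 led in each library. It was at 21.3 and 87.0 FPKM in wild type, from 3169 and 11041 counts, and at 13163 and 14838 in LDB2-/-, from 1571670 and 2249319 counts. Its log2 fold change was 8.35 (SE 0.84, adjusted p = 0.000749 in edgeR). Its rank by FPKM among all genes was 3811 and 823 in the wild type libraries and 1 in both of LDB2-/-.

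Both type II keratins of the cuticle were lower than Krt71 in every library. Krt73 was at 2.58 and 16.1 FPKM in wild type against 2022 and 2120 in LDB2-/-, a log2 fold change of 8.13 with an SE of 1.00 (edgeR adjusted p = 0.00148). Krt72 was at 0.612 and 5.02 FPKM in wild type, from 66 and 458 counts, and at 1663 and 1722 in LDB2-/-, and its log2 fold change was 9.57 with an SE of 1.15 (edgeR adjusted p = 0.00135). The genotypes did not overlap for either gene. In both, wild type library 1 was the lowest and the LDB2-/- libraries lay close together. Krt72 had the largest fold change of the 7 members, although its SE was also the largest. Krt74, annotated as a transcribed pseudogene, was also called, with 21 and 31 counts in wild type, 1853 and 1646 in LDB2-/- and an edgeR log2 fold change of 6.42, with an SE of 0.34 and an adjusted p of 0.000145, but it passed the filter on low values only through the LDB2-/- libraries.

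**Figure D1:**
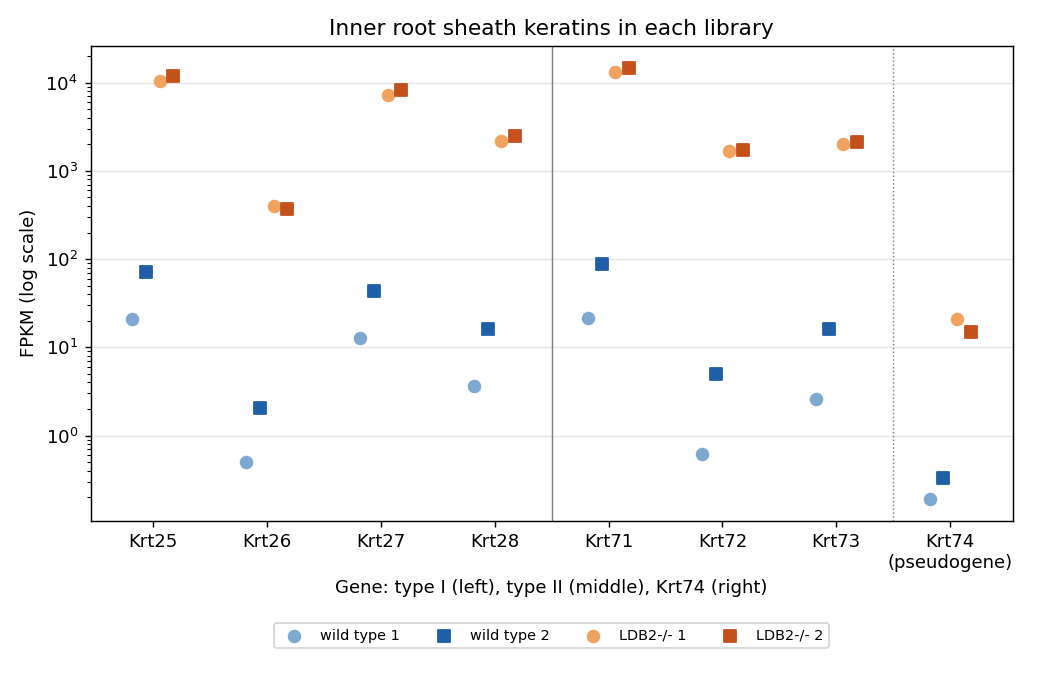
FPKM (log scale) of the 7 inner root sheath keratins and the pseudogene Krt74, with 1 point per library, circles for replicate 1 and squares for replicate 2. For all 7 members both LDB2-/- points lie far above both wild type points, and wild type 1 lies below wild type 2, as for Krt71 at 21.3 and 87.0 against 13163 and 14838 FPKM.

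All 7 members were called higher, where 28.4% of the 12400 tested genes were called higher and 28.8% lower. Scaling by the library total alone gave 18.1% higher and 41.1% lower with all 7 members still called higher. LDB2-/- lay above wild type in FPKM without overlap in 7 of 7 members and in 27.6% of tested genes. A log2 fold change of 8 or more was found for all 7 members and for 0.323% of tested genes. That cut lies just under the lowest member (Krt73, 8.13), so that all 7 reach it follows from its choice. With the library total alone Krt25 (7.93), Krt28 (7.91) and Krt73 (7.80) were under it. Without wild type library 1 only Krt72 (8.68) was above it. By log2 fold change the members ranked between 12 (Krt72) and 37 (Krt73) of all tested genes. Krt26 and Krt72 were under 1 FPKM in wild type library 1, so they passed the filter (2 or more libraries at 1 FPKM or above) only with an LDB2-/- library.

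In the authors' deposited table the fold changes of LDB2-/- over wild type ran from 278.3 for Krt73 to 753.7 for Krt72, with adjusted p between 1.12e-24 (Krt27) and 5.11e-14 (Krt73). The size of the fold rested on the wild type libraries. With wild type library 1 left out, the log2 fold changes were 7.29 (Krt73) to 8.68 (Krt72), and with wild type library 2 left out they were 9.34 (Krt25) to 11.67 (Krt72). Each of these fits keeps only 1 wild type library, so only the sizes of the folds are given. In these bulk libraries, a larger share of inner root sheath cells and more keratin RNA per cell cannot be told apart.

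The proportions of the type I keratins were close in the 4 libraries. Krt25 made up 55.3% and 53.5% of the summed type I FPKM in wild type against 51.7% and 51.6% in LDB2-/-. Krt27 made up 33.7% and 33.0% in wild type against 35.6% and 35.9% in LDB2-/-. The share of Krt28 was 10.8% ± 1.66 (SD, n = 2) in wild type and 10.8% ± 0.138 in LDB2-/-, and both LDB2-/- values lay between those of wild type. Krt26 took 1.33% and 1.55% of type I FPKM in wild type against 1.94% and 1.60% in LDB2-/-.

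The type II keratins showed a larger change in proportion, carried by Krt72. Krt71 held 87.0% and 80.5% of the type II FPKM in wild type against 78.1% and 79.4% in LDB2-/-. The share of Krt72 was 2.50% and 4.64% in wild type against 9.87% and 9.22% in LDB2-/-, both LDB2-/- libraries being above both of wild type. The share of Krt73 was 10.5% and 14.9% in wild type and 11.7% ± 0.458 (SD, n = 2) in LDB2-/-, whose values lay between those of wild type. With 2 libraries against 2, a two-sided exact permutation test cannot go below p = 0.333, which it gave for the share of Krt72.

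The cuticle pair Krt72 and Krt73 shows the shift in read counts. Of the counts in both genes together, Krt72 took 14.8% of 447 in wild type library 1 (exact 95% binomial interval 11.6% to 18.4%) and 18.5% of 2480 in wild type library 2 (17.0% to 20.1%). In LDB2-/- it took 37.4% of 381946 (37.2% to 37.5%) and 37.1% of 506199 (36.9% to 37.2%). The intervals of the genotypes do not meet, but they cover counting error only. On the FPKM scale, the ratio of Krt72 to Krt73 was 0.237 and 0.312 in wild type against 0.823 and 0.812 in LDB2-/-, a log2 difference of 1.59 (exact permutation p = 0.333, the smallest possible).

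Ratios between type I and type II partners were steadier where they did not involve Krt72. The ratio of Krt25 to Krt71 in FPKM was 0.972 and 0.821 in wild type and 0.800 in both LDB2-/- libraries. Krt27 to Krt71 stood at 0.593 and 0.506 in wild type against 0.550 and 0.556 in LDB2-/-, with overlap, and Krt28 to Krt71 at 0.169 and 0.184 against 0.166 and 0.170. In the cuticle, Krt26 to Krt73 was 0.193 and 0.129 in wild type against 0.195 and 0.174 in LDB2-/-. Krt26 to Krt72 was 0.814 and 0.412 in wild type against 0.238 and 0.214 in LDB2-/-, a log2 difference of -1.36. Of the 9 ratios between members that were computed, the 3 with the largest log2 differences all involve Krt72.

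In summed FPKM over the members, type I exceeded type II in each library. The ratio of summed type I to summed type II FPKM was 1.53 and 1.24 in wild type against 1.21 and 1.23 in LDB2-/-. Its log2 difference between genotypes was -0.17 (exact permutation p = 0.333, the smallest possible), and it was -0.019 with wild type library 1 left out, the library with the fewest member counts (7762). By the median member of each type in place of the sum, the difference was 0.0059.

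**Figure D2:**
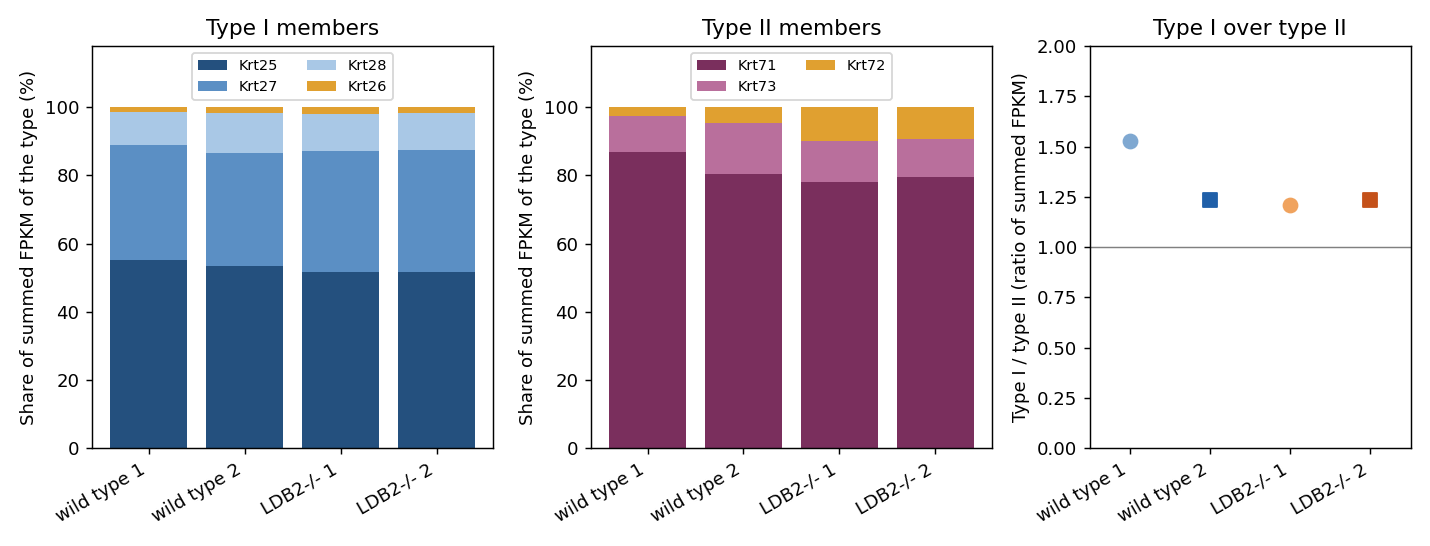
Left and middle, share (%) of each member in the summed FPKM of its type in each library; right, the ratio of summed type I to summed type II FPKM, with the line at 1 marking equal levels. Krt72, the top segment of the type II bars, goes from 2.50% and 4.64% in wild type to 9.87% and 9.22% in LDB2-/-, while the ratio lies between 1.21 and 1.53.

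The members took a large part of the LDB2-/- libraries. They held 0.0115% (exact 95% interval 0.0113% to 0.0118%) and 0.0454% (0.0449% to 0.0460%) of all counts in wild type. In LDB2-/- they held 6.96% (6.96% to 6.97%) and 7.82% (7.81% to 7.82%). Type I members took 3.35% and 3.79% of the LDB2-/- counts, and type II members 3.61% and 4.03%. Among the counts of all keratin genes, the 7 members made up 0.194% and 0.838% in wild type against 63.7% and 66.2% in LDB2-/-.

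Within wild type, all 7 members were higher in library 2 than in library 1. The FPKM ratio of library 2 to library 1 was 3.45 for Krt25, 3.49 for Krt27, 4.08 for Krt71 and 4.44 for Krt28. Of the cuticle keratins, Krt26 had a ratio of 4.15, Krt73 of 6.22 and Krt72 of 8.20. Over the 12324 tested genes with values above 0 in both wild type libraries the median ratio was 1.02, and 0.966% of them had a ratio at least as large as that of Krt25. The LDB2-/- libraries differed less in these genes, by a ratio of 0.933 for Krt26 to 1.15 for Krt28.

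**Figure D3:**
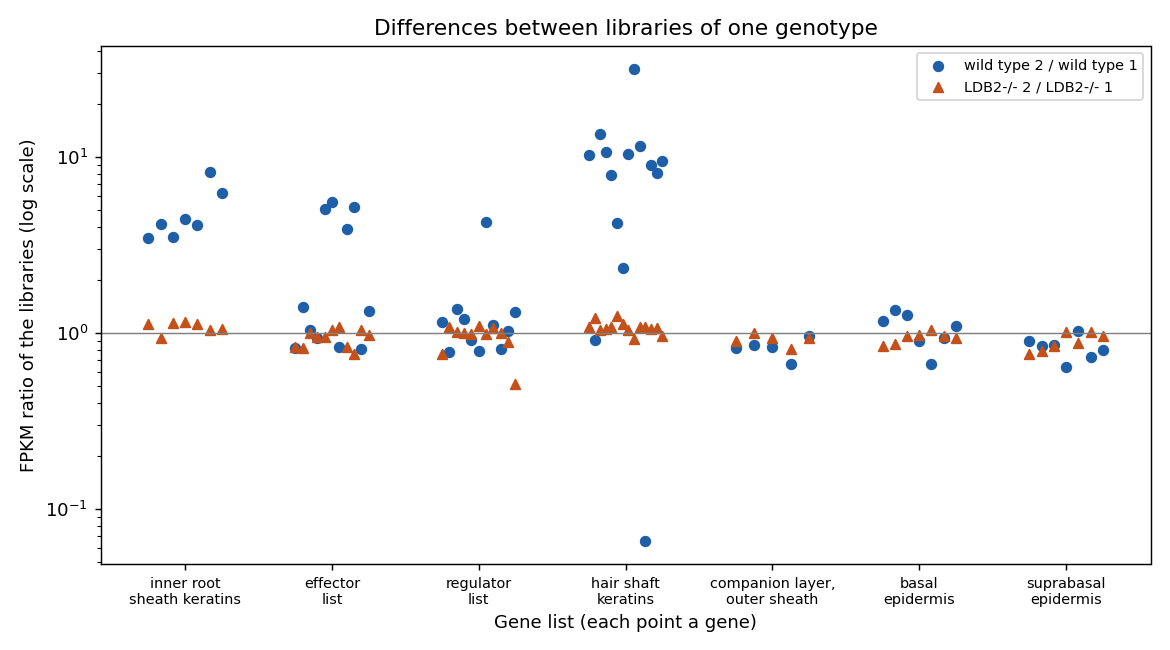
FPKM ratio (log scale) between the libraries of one genotype for each gene of 7 lists, leaving out Krt39 and Krt40, which had 0 counts in wild type library 1; circles are wild type and triangles LDB2-/-. The wild type ratios of the inner root sheath keratins run from 3.45 to 8.20, while their LDB2-/- ratios run from 0.933 to 1.15.

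Other genes of the inner root sheath were described by an effector list and a regulator list. Of 11 effector genes, 9 were called higher, 0 lower and 2 were not called, beside 28.4% of all tested genes called higher and 28.8% lower. Their median log2 fold change was 4.17 beside -0.01 for all tested genes. Padi1, Padi3 and Tchhl1 passed the filter only with an LDB2-/- library, as did Lef1 and Trps1 among the regulators. Tchh encodes trichohyalin, the matrix protein in which the keratin filaments of the sheath are embedded. It was at 11.4 and 44.3 FPKM in wild type against 5592 and 4627 in LDB2-/-, a log2 fold change of 7.84 with an SE of 0.79 (edgeR adjusted p = 0.000773). Padi3 and Padi1, which convert arginines of trichohyalin to citrulline, rose by 8.35 and 7.80 on the log2 scale, and the related S100 fused-type gene Tchhl1 rose by 7.13.

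The cross-linking transglutaminases rose less. Tgm3 rose by 4.59 on the log2 scale, from 3.23 and 4.28 to 73.4 and 71.0 FPKM, and Tgm1, which is also active in the epidermis between follicles, by 2.53. The serine protease gene Prss53 rose by 4.17, the lysophosphatidic acid receptor gene Lpar6 by 2.18 and the cathepsin gene Ctsl by 1.17. The phospholipase gene Liph was at 8.57 and 8.94 FPKM in wild type against 7.33 and 7.27 in LDB2-/- (log2 fold change 0.06, -0.26 with the library total alone), and it was not called. Gsdma3, a gasdermin gene of skin and hair, was not called in edgeR either (-0.33, adjusted p = 0.227). Limma on log2(FPKM + 1) called it lower (-0.59, adjusted p = 0.0409).

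Of 11 regulator genes, 8 were called higher, 1 lower and 2 were not called, with a median log2 fold change of 2.34. Of all tested genes, 28.4% were called higher and 28.8% lower. The hair matrix homeobox genes Msx2, Dlx3 and Hoxc13 rose by 6.05, 5.19 and 4.50 on the log2 scale, the Wnt effector Lef1 by 6.02 and the hair keratin regulator Foxn1 by 3.28. Cux1, whose loss in mice disturbs the inner root sheath, rose from 27.2 and 21.1 to 94.97 and 102.9 FPKM, with a log2 fold change of 2.34 with an SE of 0.11 (edgeR adjusted p = 0.000121). The zinc finger genes Trps1 and Ovol1 also rose, Trps1 by a fold of 3.48 and Ovol1 by 1.59 on the log2 scale.

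Gata3, the transcription factor known to specify the inner root sheath lineage, was at 117.5 and 107.1 FPKM in wild type against 113.0 and 111.9 in LDB2-/-. The genotypes overlapped, and its log2 fold change was 0.32 (SE 0.12, adjusted p = 0.0682 in edgeR). DESeq2 called it higher (0.33, adjusted p = 0.0116), as did edgeR with crossed replicate numbers as a block (adjusted p = 0.0304). On the FPKM scale, which is without TMM, the mean of Gata3 was 112.3 in wild type and 112.4 in LDB2-/-. The BMP receptor gene Bmpr1a was not called (-0.10, and 0.080 with LDB2-/- replicate 2 left out), and Sox21, a factor of the hair cuticle, fell by 0.83 on the log2 scale. Of the 4 effectors with fold changes nearest to those of the keratins (Tchh, Tchhl1, Padi1 and Padi3), all were 3.90-fold to 5.53-fold higher in wild type library 2 than in library 1, as was Lef1 (4.29-fold). By that ratio all the other genes of both lists lay between 0.775 (Cux1) and 1.41 (Gsdma3).

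**Figure D4:**
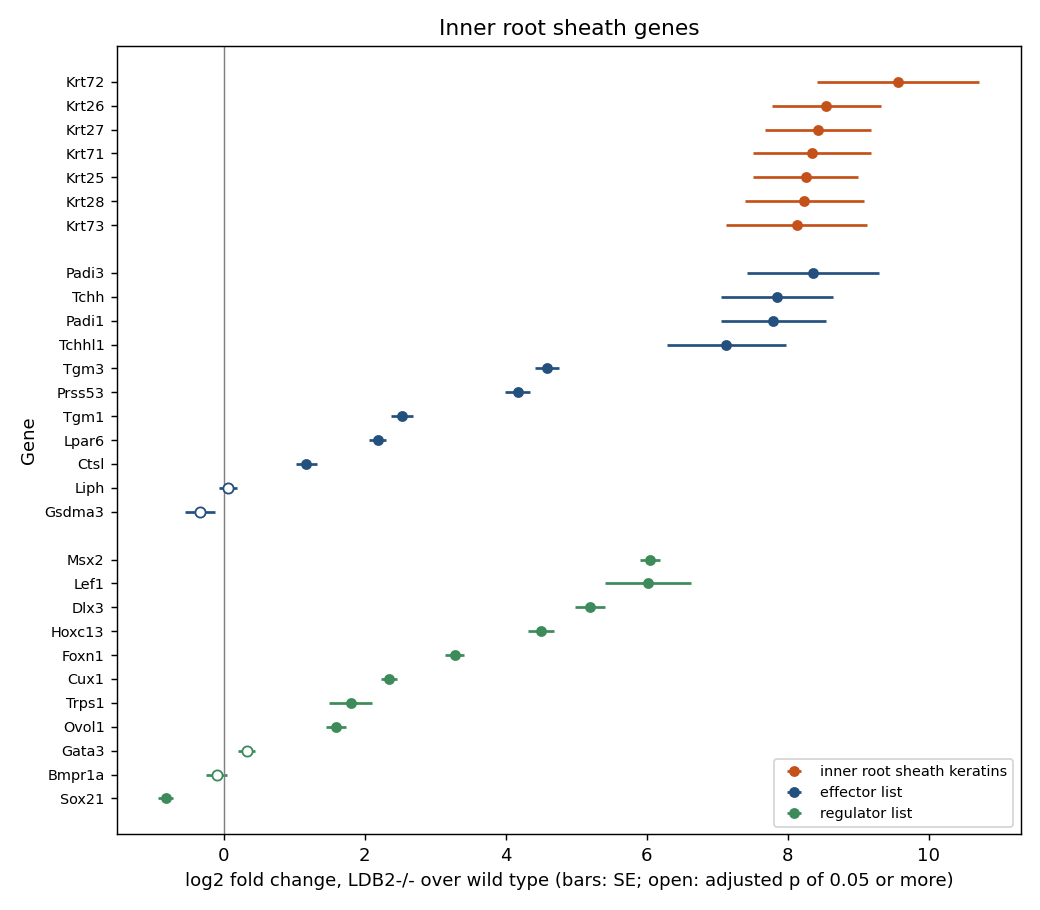
Log2 fold changes of LDB2-/- over wild type with SE for the 7 keratins, the effector list and the regulator list, where open points had an adjusted p of 0.05 or more. The keratins lie between 8.13 and 9.57, the effectors between -0.33 and 8.35 and the regulators between -0.83 and 6.05.

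The nearest tested keratin genes outside the stretch from the first to the last member fell in both clusters, whereas Krt74, inside the type II stretch, rose. Krt10, the main suprabasal type I keratin, starts 10.4 kb beyond Krt28 and fell by 3.03 on the log2 scale, with an SE of 0.22 (edgeR adjusted p = 0.000276), from 7733 and 6607 to 768.7 and 643.3 FPKM. On the other side of the type I members, 30.3 kb away, Krt24 fell by 2.73. In the type II cluster Krt5, the basal partner of Krt14, ends 21.0 kb before Krt71 and fell by 1.05 (adjusted p = 0.00565, and 0.0724 with the replicate number as a block). Krt2, the gene next to Krt73 on the other side, had under 1 FPKM in every library and was not tested, and the next gene, the suprabasal keratin Krt1, fell by 2.33. Of the tested non-member keratin genes with a position in the RefSeq table, Krt74 included, 12 rose and 4 fell in the chromosome 11 cluster and 13 rose and 6 fell in the chromosome 15 cluster, with 1 not called in each. Krt85, a type II hair shaft keratin that is not in that table, rose by 7.34.

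**Figure D5:**
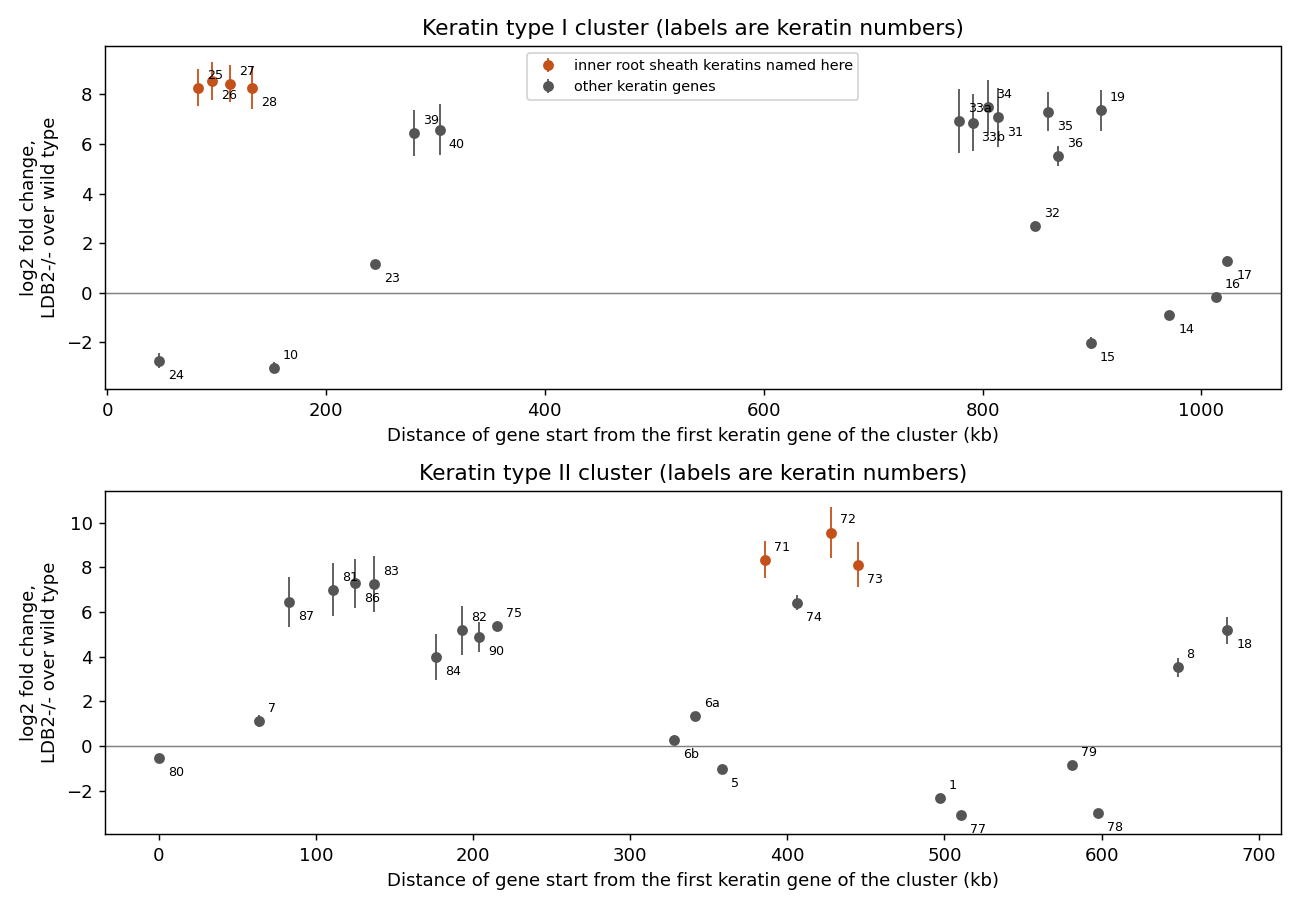
Log2 fold change of LDB2-/- over wild type with SE for the tested keratin genes that have a RefSeq position (Krt85 has none here), against the distance (kb) of the gene start from the first keratin gene of the cluster; members are orange. Krt25 to Krt28 (8.24 to 8.55) lie between Krt24 and Krt10 (-2.73 and -3.03), and Krt71 to Krt73 lie between Krt5 (-1.05) and Krt1 (-2.33), while Krt18 at the end of the lower panel is a type I gene.

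The hair shaft keratins, made by the cells inside the sheath, also rose. Of 16 in the type I and type II lists, 16 were called higher, beside 28.4% of all tested genes. Their log2 fold changes ran from 2.71 (Krt32) to 7.49 (Krt34), with a median of 6.89, beside 8.35 for the 7 inner root sheath keratins. Only 5 of the 16 were called with edgeR's robust estimation, whereas all 7 members were. That contrast lies close to the threshold. The adjusted p of the members there went up to 0.0458 (Krt72), and the lowest of the uncalled hair shaft keratins was 0.0630 (Krt34). Krt36, Krt39, Krt40, Krt82, Krt84 and Krt85 of the 16 passed the filter only with an LDB2-/- library. The median of the hair shaft keratins was 6.03 without wild type library 1 and 9.42 without wild type library 2, where Krt25 was at 9.34, and the difference from the members was not tested. In summed FPKM the hair shaft keratins were at 28.8 and 209.5 in wild type against 11498 and 12177 in LDB2-/-, against 62.0 and 241.8 and 37207 and 41687 for the members. Krt75, the type II keratin of the companion layer just outside the sheath, rose by 5.38 from 6.22 and 5.97 FPKM. Krt17 and Krt6a of the outer layers rose by 1.28 and 1.33, and Krt16 (-0.17) and Krt6b (0.28) were not called. With the library total alone, Krt16 was called lower (-0.48) and Krt6b turned negative (-0.03), but without wild type library 1 Krt6b was at 0.57.

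The 8 tested genes whose profile lay nearest to the mean member profile were Padi3, Crnn, Prr9, Crym, Tchh, Cryba4, Krt34 and Fabp4. Likeness was the Euclidean distance between profiles of log2(CPM + 0.5), centred on their mean over the 4 libraries, here with TMM scaling. Padi3 was nearest at 0.18, followed by the cornulin gene Crnn (0.366), Prr9 (0.492), Crym (0.54) and Tchh (0.675), and the distances of Cryba4, Krt34 and Fabp4 were 0.905, 0.921 and 0.935. Among the members themselves Krt71 lay nearest to the mean (0.113) and Krt72 farthest (1.15). Over 4 libraries such a distance mostly reads the gap between the genotypes and the gap between the wild type libraries. Fabp4 had 88 and 164 counts in wild type against 34768 and 44111 in LDB2-/-. Padi3, Crnn, Crym and Cryba4 passed the filter only with an LDB2-/- library, and Cryba4 had 0 counts in wild type library 1. Crym, Cryba4 and Krt34 were not called with edgeR's robust estimation (adjusted p = 0.0592, 0.0510 and 0.0630).

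Genes of other cell types moved with genotype in the same libraries, and their part in the keratin differences was not tested. The calls of these lists stand beside 28.4% of all tested genes called higher and 28.8% lower. All 8 melanocyte markers rose, 4 of which passed the filter only with an LDB2-/- library, and their summed FPKM was 17.4 and 28.5 in wild type against 601.3 and 682.8 in LDB2-/-. All 7 basal markers fell (summed FPKM 13832 and 12420 against 4959 and 4789; Krt5 and Krt14 were not called with the replicate block), as did the 6 tested of 7 suprabasal markers (19454 and 16590 against 2497 and 2218) and all 7 sebaceous gland markers (1267 and 1709 against 265.6 and 220.7). Of 6 granular layer markers 3 fell and 1, Ivl, rose (0.71, not called with the library total alone or limma), with summed FPKM of 1941 and 1689 against 502.6 and 482.5. Casp14 (-0.50) was not called, but was called lower in 6 alternatives, such as DESeq2 (adjusted p = 0.0187).

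Markers of cells outside the epidermis were low in both genotypes, and their summed FPKM was higher in LDB2-/-. The summed FPKM was 17.8 and 11.5 against 50.6 and 56.1 for fibroblasts (4 of 7 tested, 4 higher), and 0.879 and 0.648 against 30.1 and 23.7 for skeletal muscle. It was 1.65 and 2.88 against 15.9 and 15.3 for endothelium and 4.09 and 4.60 against 16.2 and 15.1 for the dermal papilla. The 6 muscle and 4 endothelial markers that were tested, and 2 of the 3 of the dermal papilla, passed the filter only with an LDB2-/- library, so that their calls show little beyond the filter, and Rspo3 of the dermal papilla (1.29 and 0.564 against 0.319 and 0.298 FPKM) was not tested. Cldn5 and Corin had 0 counts in wild type library 1, Myh4 in wild type library 2 and Kdr in both LDB2-/- libraries. Of 6 immune markers 3 fell and 2 rose (Cd74, at -0.45, was not called, but was called lower in 5 alternatives), with summed FPKM of 629.6 and 674.2 against 352.7 and 429.4. Of 7 proliferation markers, Mki67 (0.48) and Birc5 (0.53) were called higher, and neither was with the library total alone. Their list's summed FPKM was 179.9 and 197.1 in wild type against 172.0 and 160.6 in LDB2-/-.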

How the data were processed

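RNA-seq was run on 4 libraries of mouse back skin epidermis, 2 wild type and 2 LDB2-/-. The submitters' processing notes name bcl2fastq 1.8.4, the aligner HISAT2 2.1.0, the quantifier StringTie 1.3.4d and mm10, and whether counting used strand is not given in the sources used here. The authors deposited read counts per gene, not normalized, and FPKM, per the file headers. The deposited table also holds the authors' comparison, with a signed fold change treated as a score and an adjusted p-value. Its 4 columns of normalized log2 values were not used.

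Genes needed 1 FPKM or above in 2 or more libraries, and counts of the 12400 that passed were scaled with TMM and tested two-sided with edgeR 4.0.16 (quasi-likelihood, R 4.3.3), with Benjamini-Hochberg adjustment over all of them and a threshold of 0.05. The SE is the one implied by the F statistic. Ratios and shares were compared by exact permutation. Alternatives used DESeq2 1.42.0, limma 3.58.1 on log2(FPKM + 1) and log2(FPKM + 0.1), other scalings and filters, a block and each library left out. For single genes other than the members, limma on log2(FPKM + 0.1) was not looked at. Other steps used Python 3.11.15, SciPy 1.17.1, pandas 2.3.3 and Biopython 1.88, with matplotlib 3.10.9 for figures.

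The 7 members and the gene lists were chosen with earlier results of these data known, and the motifs with the promoter sequences in view. Named genes are the members, Krt74, the effector and regulator lists, up to 4 genes of each other list with the largest fold change, flanking keratins and the 8 genes nearest in profile. Krt16, Krt6b, Krt14, Krt85, Ivl, Casp14, Cd74, Rspo3, Cldn5, Corin, Myh4, Kdr, Mki67, Birc5, Krt84 and Krt18 were named for their values or as controls. Transcripts of members of one type are 68.8% to 82.1% identical, with identical runs of up to 105 bases (Krt25 and Krt27), so short reads can be shared between them. Promoters are RefSeq's, on GRCm38.p6, and all 7 members matched.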

Additional observations from a re-analysis of the deposited data

How the results depend on the processing

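All 7 members were called higher in each alternative that kept all 4 libraries. The adjusted p there ran from 8.30e-25 (Krt27 with DESeq2) to 0.0458 (Krt72 with edgeR's robust estimation). Over all 15 alternatives, those with a library left out included, the log2 fold changes ran from 7.29 to 11.67. A fit with a library left out keeps 1 library in a group, so its calls do not carry the spread there. Scaling by the library total alone gave a median log2 fold change over tested genes of -0.33, against -0.01, and put the members between 7.80 and 9.24. Same-numbered libraries did not deviate together (correlation -0.198 across genes). With 2 libraries per genotype, that correlation cannot settle whether the labels' numbers pair them. With the replicate number as a replicate block the members called were 7, and with crossed numbers, a block added after seeing the data, also 7. All genes called were 2916 higher and 3176 lower with the block and 3678 higher and 3591 lower with crossed numbers, against 3521 and 3576 without a block. Leaving out each library in turn gave a log2 difference in the ratio of type I to type II from -0.33 to -0.019 and in the members' share of counts from 6.93 to 7.79 percentage points, against 7.36. The ratio's difference was 0.0059 with the median member, and the share's difference was 6.74 as a share of summed FPKM. The block leaves both differences at -0.17 and 7.36, since it averages the same libraries. Depth limits Krt72 and Krt26 most in wild type library 1, with 66 and 89 counts. The precision of each fold rests on 2 wild type libraries that differ.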

Other observations

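Some hair shaft keratins did not follow the inner root sheath keratins within wild type. Of 16 hair shaft keratins, 14 were higher in wild type library 2 than in library 1, as were all 7 inner root sheath keratins. The exceptions were Krt84, at 2.88 and 0.189 FPKM in wild type libraries 1 and 2, from 507 and 29 counts, and Krt32, at 5.13 and 4.68. Both were chosen after their values were seen. In LDB2-/- Krt84 was at 19.2 and 20.6 FPKM and Krt32 at 23.2 and 28.04, and both were called higher (log2 fold changes 3.99 and 2.71, edgeR adjusted p = 0.0203 and 0.000228). Krt84 was not called with robust estimation (adjusted p = 0.174).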
